A study of Mus musculus with 15 samples.

Results

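The chromatin around 6 genes of nitrogen and glucose metabolism was followed in mouse hepatocytes: Cps1, Ass1 and Arg1 of the urea cycle, Pck1 and G6pc of gluconeogenesis, and Tat of tyrosine breakdown. The genes were picked for their functions, with earlier results of these data known, and each locus is 1 window of the mm9 genome around its gene. Together the windows held 420 of the 1236182 autosomal bins of 2 kb. Chromatin had been profiled by srHC-seq, in which crosslinked chromatin is sonicated and long and short DNA fragments are sequenced apart, so that sonication-resistant, closed chromatin can be told from open chromatin. The 15 samples formed 3 groups of 5 mice, all profiled as isolated hepatocytes. Wild-type mice (Wt) were taken at postnatal day 14 (P14; 3 males and 2 females) and at 2 months (2 males and 3 females). The third group, also P14 (2 males and 3 females), had the genotype Alb-Cre;Ezh1-/-;Ezh2f/f. In these mice Ezh1 is deleted throughout the body and Cre is driven by the albumin promoter, which acts in hepatocytes, to remove Ezh2. Whether the wild-type mice carried any of these alleles is not given in the labels. EZH1 and EZH2 are the enzymes of PRC2, which places the silencing methyl mark on lysine 27 of histone H3.

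Each group had 1 genome map, read here as a pool of its 5 mice, which assigned each stretch to closed (het), open (euch) or intermediate (int) chromatin. The list of euch domains at 2 months was named under 4 of the 5 mice, so its pool is less certain. The P14 wild-type map had 131395 domains, the knockout map 120579 and the 2-month map 94111. They gave no signal and no depth, so the strength of each call was unknown. With 1 map per group no difference could be tested against the spread between mice, so all values below are descriptions, and bins of 1 locus are neighbours and not replicates. The purity of the hepatocytes could not be checked against marker genes, since the lists hold no expression.

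The urea cycle turns toxic ammonia into urea and runs almost wholly in the liver. Gluconeogenesis supplies blood glucose between meals, and the carbon skeletons of amino acids feed it, so both pathways share substrates and hormonal control by glucagon and glucocorticoids. Several of their genes are switched on around birth, when glucose from the placenta ends. CPS1 joins ammonia and bicarbonate in the first, rate-limiting step of the urea cycle, ASS1 joins citrulline to aspartate, and ARG1 splits arginine into urea and ornithine. PCK1 makes phosphoenolpyruvate from oxaloacetate, and G6PC frees glucose from glucose 6-phosphate, the last step of both gluconeogenesis and glycogen breakdown. TAT takes the amino group off tyrosine, and its gene is a classical glucocorticoid target.

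Promoter sequence was found for 4 of the 6 genes in a RefSeq table of build GRCm38.p6, and the 250 bases before each start are shown. The windows of these genes were more open at 2 months than at P14, at G6pc not under every setting. Whether these bases have a part in that was not tested. The positions, all on the plus strand, were chr2:173152823-173153072 for Pck1, chr11:101367466-101367715 for G6pc, chr8:109990186-109990435 for Tat and chr2:31470020-31470269 for Ass1. That build differs from the mm9 of the maps, so no chromatin class was given to these bases. Capitals mark 4 short motifs on either strand: ACGTCA (core of the cAMP response element), GTTAAT (part of the HNF1 site), CCAAT and TATAAA.
Pck1: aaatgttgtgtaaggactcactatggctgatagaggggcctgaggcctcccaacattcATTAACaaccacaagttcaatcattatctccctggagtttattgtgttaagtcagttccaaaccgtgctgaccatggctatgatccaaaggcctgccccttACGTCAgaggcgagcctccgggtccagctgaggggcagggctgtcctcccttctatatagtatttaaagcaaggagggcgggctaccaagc
G6pc: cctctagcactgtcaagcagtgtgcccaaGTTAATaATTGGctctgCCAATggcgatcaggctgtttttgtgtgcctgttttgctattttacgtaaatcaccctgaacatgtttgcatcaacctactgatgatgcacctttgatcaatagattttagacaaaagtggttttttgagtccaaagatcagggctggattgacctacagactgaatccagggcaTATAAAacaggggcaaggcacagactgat
Tat: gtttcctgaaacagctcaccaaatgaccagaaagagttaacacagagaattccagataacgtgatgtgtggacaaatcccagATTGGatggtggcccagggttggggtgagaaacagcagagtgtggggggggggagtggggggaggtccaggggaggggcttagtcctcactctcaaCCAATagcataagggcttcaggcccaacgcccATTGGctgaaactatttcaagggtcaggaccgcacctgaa
Ass1: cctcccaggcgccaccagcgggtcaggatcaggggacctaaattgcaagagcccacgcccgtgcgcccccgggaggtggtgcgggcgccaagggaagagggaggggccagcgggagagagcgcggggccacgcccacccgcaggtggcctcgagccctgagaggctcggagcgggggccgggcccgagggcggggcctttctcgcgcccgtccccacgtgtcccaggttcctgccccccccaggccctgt
The Pck1 promoter held 1 ACGTCA and 1 GTTAAT, letters present in 6.47% and 6.43% of 32851 promoter stretches of this length. G6pc held 1 GTTAAT, 2 CCAAT, of which 1 in reverse lay 1 base after the GTTAAT, and 1 TATAAA. Tat held 3 CCAAT, 2 of them in reverse, a motif of 33.8% of promoters, while TATAAA was in 12.4%. Ass1 held none of the 4 motifs. It was instead rich in CpG, with 23 CpG and 75.6% G and C, against medians of 6 CpG and 52.4% over all promoters. The other 3 had 5 (Pck1), 2 (G6pc) and 3 (Tat) CpG. These are matches of letters and do not show binding.

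Each of the 6 loci held a stretch of 48 to 200 kb that was euch in all 3 maps. The longest such stretch of a window is called its core. By this definition the core cannot differ between maps, so any difference lies beside it. The euch domain that holds the core in a given map is called the core domain. Over the 6 windows, euch covered 71.9% of bins in the P14 wild type, 76.4% in the knockout and 86.9% at 2 months. The het class covered 23.1%, 16.0% and 10.2% in the same order. Across all autosomes euch covered 42.7%, 42.4% and 43.0%, and het 45.4%, 46.0% and 46.2%. Of the 420 bins, 298 (71.0%) were euch in all 3 maps, against 30.2% of autosomal bins. Another 29 bins were het in all 3.

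**Figure D1:**
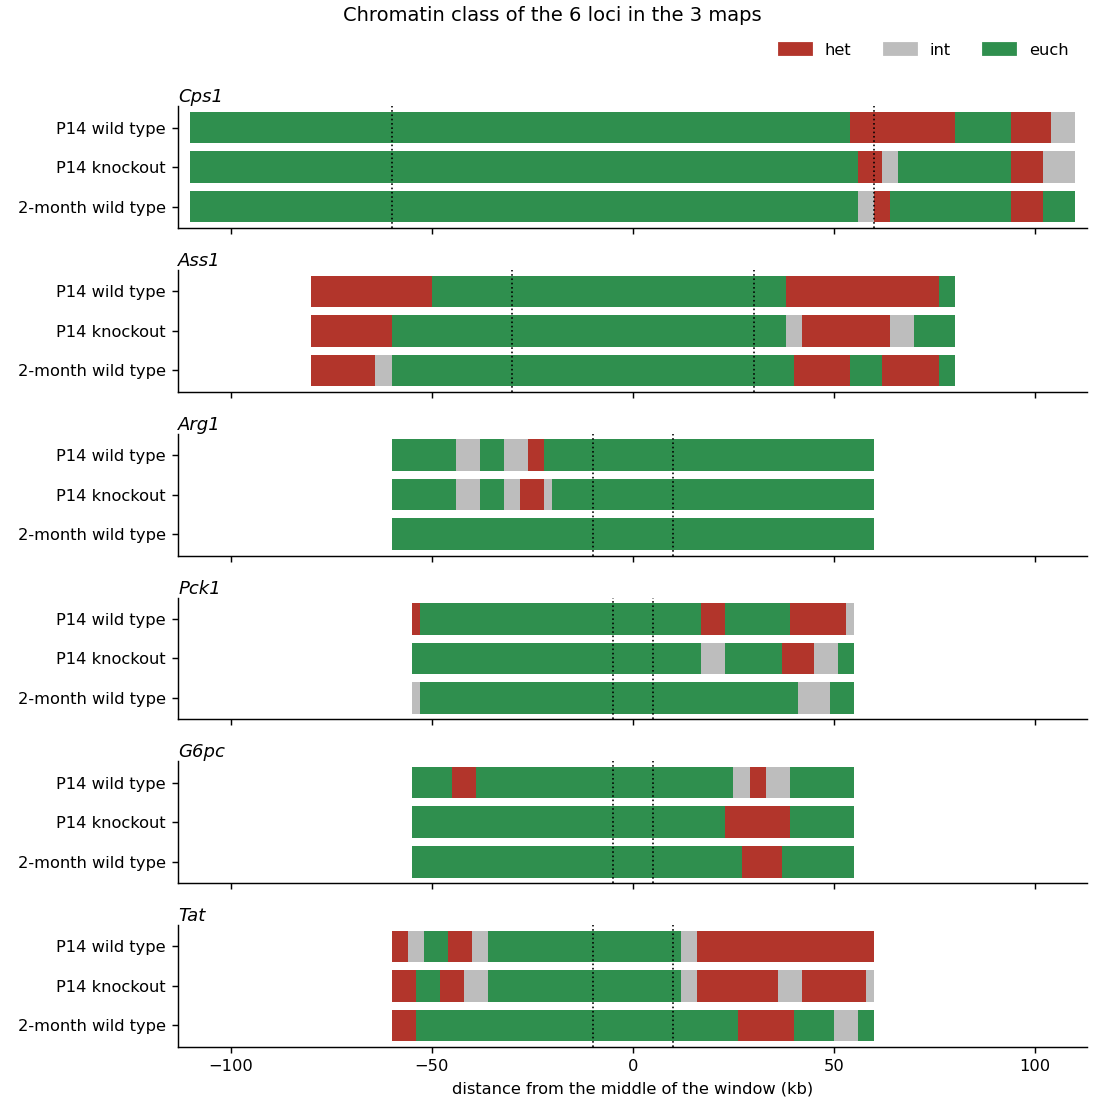
Each row is 1 map of a locus window and each colour a class (red het, grey int, green euch), plotted against the distance from the middle of the window in kb. Dotted lines bound the inner part, left when 50 kb is taken off each end. The inner parts were green in all 3 maps except for the last 3 bins of Cps1, and red and grey lay at the ends of the windows.

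The open core was longest at Cps1. There, 200 kb of chromosome 1 (67084001 to 67284000) was euch in all 3 maps, and 0.941% of the 29554 such stretches on the autosomes were as long. It was 88 kb at Ass1 (chromosome 2, 31300001 to 31388000) and 94 kb at Arg1 (chromosome 10, 24620001 to 24714000). At Pck1 it was 70 kb (chromosome 2, 172932001 to 173002000), at G6pc 62 kb (chromosome 11, 101196001 to 101258000) and at Tat 48 kb (chromosome 8, 112484001 to 112532000). The median autosomal stretch of this kind was 12 kb, and 13.9% were at least as long as the shortest of the 6. Each core was picked as the longest such stretch in its window, so a length above the median says little. By bins, long euch domains were common: 270009 of the 528200 autosomal euch bins of the P14 wild type lay in domains of at least 50 kb. Cps1 and Arg1 cores reached past their windows, at the low end of Cps1 and the high end of Arg1.

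The inner parts of the windows, 10 to 120 kb long, were nearly all euch in all 3 maps. Of their 120 bins, 117 were euch in the P14 wild type and 118 in each of the other maps. All bins that were not lay at the high end of the Cps1 inner part, where 6 kb was het in P14 wild-type, 4 kb het in the knockout and 4 kb int at 2 months. For Ass1, Arg1, Pck1, G6pc and Tat the inner part was euch throughout in all 3 maps. The 300 bins of the outer 50 kb held 370 kb of euch in the P14 wild type, 406 kb in the knockout and 494 kb at 2 months. No annotation of mm9 was used here, so exons, introns and starts were not placed in these parts.

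An openness score was taken for each window by subtracting its share of het bins from its share of euch bins, so that -1 is all het and 1 all euch. In P14 wild-type hepatocytes the order was Arg1 (0.833), G6pc (0.727), Cps1 (0.645), Pck1 (0.582), Ass1 (0.15) and Tat (0). In P14 knockout hepatocytes it was Cps1 (0.818), Arg1 (0.8), Pck1 (0.745), G6pc (0.709), Ass1 (0.413) and Tat (0.05). At 2 months it was Arg1 (1), Pck1 (0.909), Cps1 (0.873), G6pc (0.818), Tat (0.617) and Ass1 (0.425). The median over the 6 was 0.614 in the P14 wild type, 0.727 in the knockout and 0.845 at 2 months. Ass1 and Tat were the least open in all 3 maps, and no spread between mice was available to separate neighbours in these orders.

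**Figure D2:**
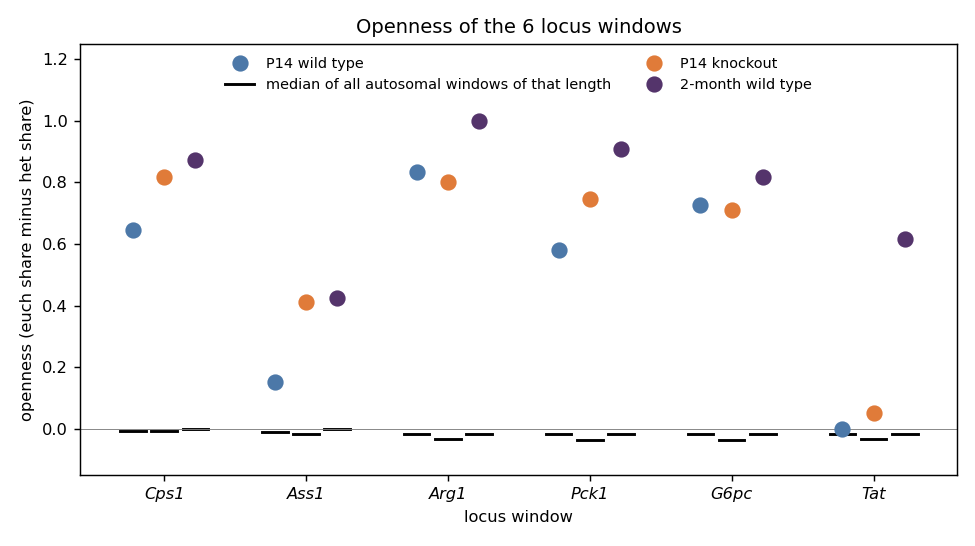
Points give the openness score of each locus window (no unit) in P14 wild-type (blue), P14 knockout (orange) and 2-month wild-type (purple) hepatocytes, and black bars the median of all autosomal windows of the same length in that map. Purple points lie highest at all 6 loci, and orange points lie above blue at 4 of them.

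Set among all autosomal windows of the same length, the loci were open but not at the extreme. In P14 wild-type hepatocytes, 11.1% of 20594 windows of 120 kb were at least as open as Arg1, 14.9% of 11228 windows of 220 kb as Cps1, and 16.1% and 22.0% of 22465 windows of 110 kb as G6pc and Pck1. The Ass1 window was matched or passed by 39.4% of 15442 windows of 160 kb and the Tat window by 49.6% of 20594, so neither stood apart from the genome at P14. Median scores of all such windows lay between -0.0364 and 0 in the 3 maps. At 2 months the Tat share was 29.3% and the Ass1 share 34.6%. The others were 10.1% for Arg1, 13.5% for Cps1, 17.1% for Pck1 and 21.9% for G6pc. Only the G6pc share was larger than at P14, so its window ranked lower among all windows though its score was higher.

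The surroundings of the loci differed. In the 50 kb beyond each end of the window, euch covered 82.0% at Cps1, 74.0% at G6pc, 68.0% at Arg1 and 64.0% at Tat in P14 wild-type hepatocytes. It covered 16.0% at Ass1 and 4.0% at Pck1, which were open islands between closed stretches, with 80 and 94 kb of het in those 100 kb. At 2 months these values were 38.0% at Ass1 and 20.0% at Pck1, and in the knockout 22.0% and 10.0%. At 2 months euch covered all of the surroundings of Cps1 and G6pc.

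Wild-type mice of both ages were compared to ask how chromatin at these loci differs between the young and the mature liver. All 6 windows as given were more open at 2 months, by a median of 0.251. Rises at least as large were found in 6.05% (Tat) to 39.2% (G6pc) of autosomal windows of the same length. The shares were 19.1% for Pck1, 22.4% for Ass1, 26.3% for Cps1 and 31.9% for Arg1. No bin that was euch at P14 had left that class: the count was 0 of 302, against 22.7% of euch bins over the autosomes. Most of these bins, 242, lay in P14 euch domains of at least 50 kb. Of autosomal bins in euch domains that long 6.17% left the class, so these are the closer background for the 0 of 242. Of the 97 het bins of P14, 58 (59.8%) were int or euch at 2 months, against 22.3% over the autosomes. For het bins of domains under 50 kb the counts were 50 of 81 (61.7%), against 33.1%. Of the 21 int bins 17 (81.0%) were euch, against 29.7%.

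Counted over all bins, 75 of 420 (17.9%) had a more open class at 2 months and 4 (0.952%) a more closed one. Over the autosomes the shares were 13.6% and 13.7%. Only 118 bins were not yet euch at P14 and could have a more open class. How far the share with a more open class stood from the background depended on the window ends: it was 13.0% with 20 kb left off each end and 21.5% (155 of 720 bins) with 50 kb added. It was 14.4% without the Tat window and 19.4% without that of Cps1. The count of bins with a more closed class was low against its background, and 3 of the 4 lay in the G6pc window and 1 in that of Tat. Without the G6pc window the share with a more closed class was 0.274%. Of the 118 bins that were het or int at P14, 63 (53.4%) were euch at 2 months, against 17.4% over the autosomes.

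Among the urea cycle genes, the Cps1 window held 178 kb of euch at P14 and 204 kb at 2 months, and 36 and 12 kb of het. At P14 a het domain of 26 kb, from 67284001 to 67310000, closed off the core at its high end. At 2 months 4 kb of het remained of it, from 67290001 to 67294000, beside 4 kb of int, and the 16 kb from 67294001 to 67310000 were euch. In the knockout 14 of those 16 kb were euch and 2 kb int. A second het domain kept its place, with 8 kb from 67324001 to 67332000 in both other maps and 10 kb in P14 wild-type. The euch domain of the core was 200 kb long at P14 and 264 kb at 2 months, when it began at 67022001. In all, 15 of 110 bins (13.6%) had a more open class, the same share as over the autosomes, and none a more closed one. Only 21 of the 110 bins were not euch at P14 and could have a more open class. Of these 21, 13 were euch at 2 months, where 17.4% of such autosomal bins were.

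The Ass1 window held 92 kb of euch at P14 and 112 kb at 2 months, and 68 and 44 kb of het. Het chromatin lay on both sides of its core domain in all 3 maps, next to it or behind 4 kb of int. On the low side the het domain ended at 31300000 at P14 and at 31286000 at 2 months, and the 10 kb from 31290001 to 31300000 went from het at P14 to euch at 2 months, as they were in the knockout. On the high side a single het domain of 38 kb at P14, from 31388001 to 31426000, stood at 2 months as 2 domains of 14 kb with 8 kb of euch between them. Of the 34 bins that were het at P14, 22 were still het, so Ass1 held more het than any other of the loci at 2 months.

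Arg1 was the most open of the loci at both wild-type ages. At P14 its window held 104 kb of euch, with 12 kb of int and 4 kb of het, all between 24596001 and 24618000 on the low side of the core. At 2 months the window had no edge at all. It lay whole in 1 euch domain of 222 kb, from 24492001 to 24714000, where the P14 core domain was 96 kb long. A window of 120 kb that was fully euch was found in 10.1% of 20594 cases at 2 months, so this state is common. All 8 bins that were not euch at P14 were euch at 2 months.

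Of the gluconeogenesis genes, Pck1 had 86 kb of euch at P14 and 100 kb at 2 months, and its 22 kb of het at P14 had no counterpart at 2 months, when 10 kb was int. A het domain of 6 kb at the high end of the core, from 173002001 to 173008000, was euch at 2 months, which joined the core to the next euch domain into 1 of 94 kb, from 172932001 to 173026000. A second het domain of 14 kb, from 173024001 to 173038000, was replaced by euch and int. Of 55 bins, 12 (21.8%) had a more open class and none a more closed one. The score was higher by 0.327, and 19.1% of autosomal windows of that length had a rise at least as large. With 20 kb left off each end the difference was 0.171, and in bins of 10 kb it was 0.545.

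G6pc was less uniform than the others. Its window held 90 kb of euch at P14 and 100 kb at 2 months, but 10 kb of het at both ages. The 6 kb from 101190001 to 101196000 were het at P14 and euch at 2 months, and with them the core domain reached 204 kb, from 101058001 to 101262000, against 64 kb at P14. On the other side a het domain of 4 kb at P14, flanked by int, was 10 kb long at 2 months, from 101262001 to 101272000. So 5 of 55 bins (9.09%) had a more open class and 3 (5.45%) a more closed one, both below the autosomal 13.6% and 13.7%. Only 10 of the 55 bins were not euch at P14. The score was higher by 0.0909 in the window as given, but the difference was -0.0286 with 20 kb left off each end and -0.00535 without domains under 6 kb.

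**Figure D3:**
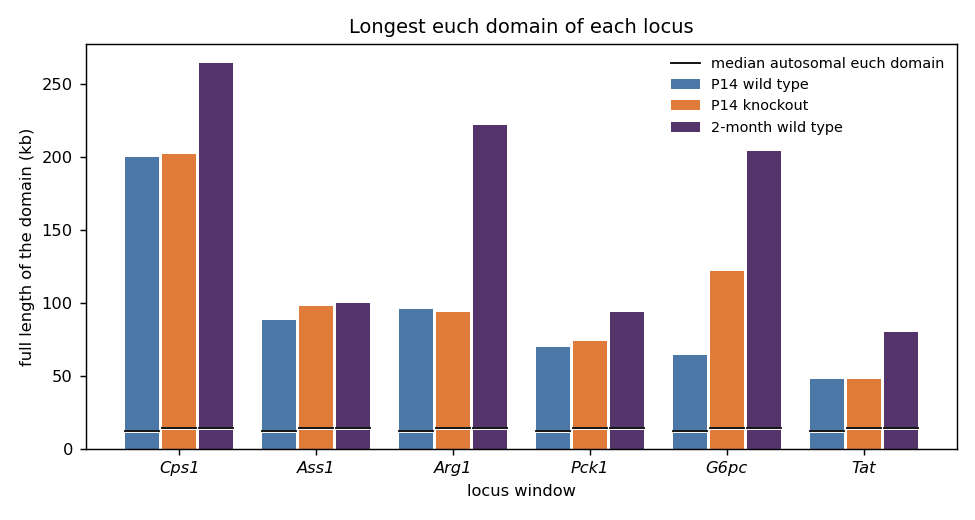
Bars give the full length in kb of the euch domain that covers most of each window, also where it runs past the window, in P14 wild-type (blue), P14 knockout (orange) and 2-month wild-type (purple) hepatocytes, and black lines the median euch domain of the autosomes (12 or 14 kb). The purple bar is the tallest at each locus, with 264 kb at Cps1, 222 kb at Arg1 and 204 kb at G6pc. Autosomal euch domains were also fewer at 2 months, and longer on average.

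Tat differed most with age. Its window held 54 kb of euch at P14 and 94 kb at 2 months, and 54 and 20 kb of het, and the score was 0 and 0.617. A rise at least as large as this 0.617 was found in 6.05% of 20594 autosomal windows of that length, and with 20 kb left off each end the difference was 0.35. The core domain reached further on both sides at 2 months. It ran from 112484001 to 112532000 at P14 (48 kb) and from 112466001 to 112546000 at 2 months (80 kb). Beyond it, 14 kb was still het, from 112546001 to 112560000, of a P14 het domain of 48 kb that ran from 112536001 to 112584000. In all, 23 of 60 bins (38.3%) had a more open class, the largest share of the 6 windows, and 1 a more closed one. At P14 33 of the 60 bins were not euch and could have a more open class. Of these 33, 20 were euch at 2 months. The counts were 13 of 21 at Cps1, 10 of 34 at Ass1, 8 of 8 at Arg1, 7 of 12 at Pck1 and 5 of 10 at G6pc.

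**Figure D4:**
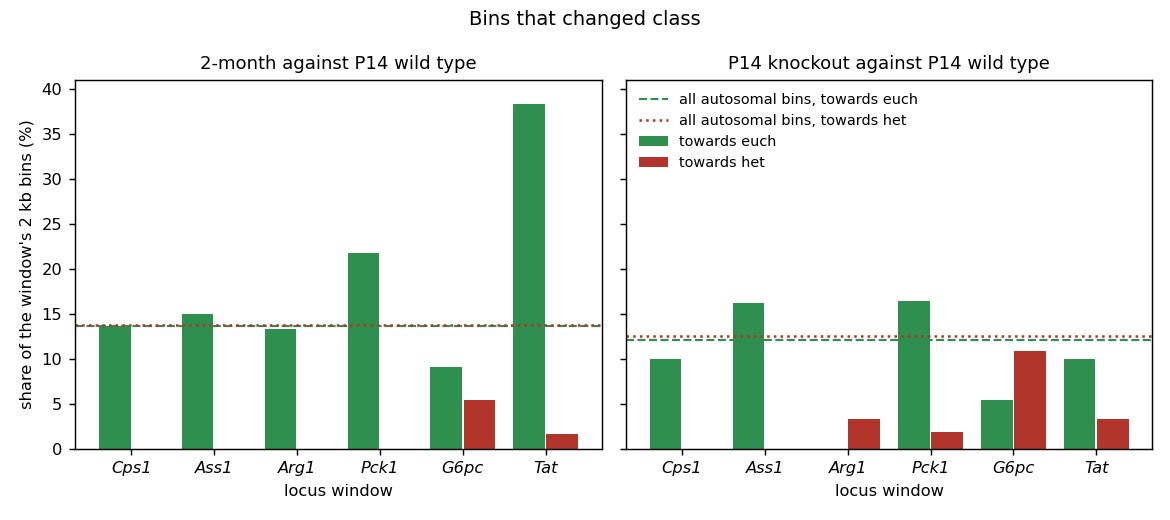
Bars give the share of each window's 2 kb bins with a more open class (green) or a more closed class (red) than in P14 wild-type hepatocytes, at 2 months (left) and in the P14 knockout (right), and lines the same shares over all autosomal bins. With age, green bars reach 38.3% at Tat and 21.8% at Pck1. Those of Cps1, Ass1 and Arg1 (13.3% to 15.0%) lie near the line, and that of G6pc (9.09%) lies under it. Only 21 of 110 bins at Cps1, 34 of 80 at Ass1 and 8 of 60 at Arg1 were not euch at P14 and could have a more open class. At Pck1 12 of 55 could, at G6pc 10 of 55 and at Tat 33 of 60. Red bars stay under the lines in all 6 windows of both panels.

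The core domain was longer at 2 months than at P14 at all 6 loci. The P14 lengths were 200, 88, 96, 70, 64 and 48 kb at Cps1, Ass1, Arg1, Pck1, G6pc and Tat, and the 2-month lengths 264, 100, 222, 94, 204 and 80 kb. The median euch domain of the autosomes measured 12 kb at P14 and 14 at 2 months. Autosomal euch domains were also longer on average at 2 months. Nearly the same euch share (42.7% and 43.0%) lay in 40522 domains at P14 and in 25999 at 2 months. At P14 1.12% of the 40522 autosomal euch domains were as long as that of Cps1, and 13.0% as that of Tat. At 2 months the shares were 2.35% and 13.3% of 25999. Among all euch domains, those of G6pc (3.94% against 9.16% as long) and Arg1 (3.36% against 5.09%) stood higher at 2 months than at P14. Those of Ass1 (10.5% against 5.88%) and Pck1 (11.3% against 8.16%) stood lower, as did those of Cps1 and, slightly, Tat. Counting every class, the windows were crossed by 36 domains at P14 and 27 at 2 months, and the het domains among them numbered 13 and 8. Domains were fewer at 2 months over the autosomes too, with 121317 and 85333 in all and 41439 and 28510 of het.

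Genotypes were compared at P14 to ask how these loci differ when Ezh1 and Ezh2 are lost. Cps1, Ass1 and Pck1 were more open in the knockout, with scores of 0.818 against 0.645, 0.413 against 0.15 and 0.745 against 0.582. Tat differed by 0.05, and Arg1 and G6pc differed by -0.0333 and -0.0182. A rise at least as large as that of Ass1 was found in 12.9% of autosomal windows of its length, of Cps1 in 20.4% and of Pck1 in 24.0%. The Pck1 difference was 0.0857 with 20 kb left off each end and 0.257 with 50 kb added. Over the 6 windows 42 bins (10.0%) had a more open class and 11 (2.62%) a more closed one, against 12.1% and 12.5% over the autosomes. The share with a more open class lay near the background, at 7.33% with 20 kb left off each end of the windows and 13.2% (95 of 720 bins) with 50 kb added. The share with a more closed class was low against its background, and it was 1.37% without the G6pc window.

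By starting class, 40 of the 97 het bins (41.2%) were int or euch in the knockout, against 19.4% over the autosomes. For het bins of domains under 50 kb the counts were 34 of 81 (42.0%), against 28.6%. Of the 302 euch bins 4 (1.32%) had left the class, against 20.1%. For euch bins of domains of at least 50 kb it was 2 of 242 (0.826%), against 6.47%. Of the 21 int bins 2 (9.52%) were euch, against 27.7% over the autosomes, and of the 118 bins that were het or int 23 (19.5%), against 14.5%. Another 7 of the 21 int bins were het, beside 48790 of 146671 over the autosomes, a like share. Int bins thus made up 7 of the 11 bins with a more closed class. The wild-type map of P14 is the control in this comparison and in that of age, and its errors enter both.

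At Cps1, 18 kb from 67292001 to 67310000 had a more open class in the knockout, 14 kb of it euch and 4 kb int, and 16 kb of the stretch was euch at 2 months. The core domain differed by 2 kb. At Ass1 the low edge of the core domain lay at 31290001, as at 2 months and 10 kb out from the P14 wild type. On the high side the knockout differed from both: 12 kb from 31414001 to 31426000 was int or euch there and het in both wild-type maps. At Pck1 the het domain of 6 kb at the high end of the core was int in the knockout and euch at 2 months. Further out, the 10 kb from 173030001 to 173040000, het or int in the P14 wild type, had a more open class. In the other direction, the 2 kb from 173022001 to 173024000 were euch in both wild-type maps and het in the knockout.

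At Arg1, G6pc and Tat the score differed less, though at G6pc and Tat bins did change class, in both directions. At Arg1 no bin had a more open class and 2 a more closed one, and the het domain in its window was 6 kb long against 4 kb. In the 50 kb beyond each end of the window, 22 kb in all was het in P14 wild-type and none in the knockout, and with 50 kb added to each end the Arg1 score was higher by 0.218. At G6pc the 6 kb from 101190001 to 101196000 were euch, as at 2 months, which lengthened the core domain to 122 kb, while the het domain on the other side measured 16 kb against 4 kb in the P14 wild type. That made 3 of 55 bins (5.45%) more open and 6 (10.9%) more closed, against 12.1% and 12.5% over the autosomes. The direction at G6pc turned with 50 kb added to each end (0.0571) and in bins of 10 kb (0.0909). At Tat the core domain had the same edges as in P14 wild-type hepatocytes. There 6 of 60 bins (10.0%) had a more open and 2 (3.33%) a more closed class. In bins of 10 kb the Tat difference was -0.0833.

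Between the P14 knockout and the 2-month wild type, Tat stood furthest apart, with a score of 0.05 against 0.617. A difference at least as large in that direction was found in 4.23% of autosomal windows of its length. Ass1 stood closest, with 0.413 against 0.425, though not through the same bins: 7 of 80 bins were more open and 7 more closed at 2 months. Cps1 had 0.818 against 0.873, G6pc 0.709 against 0.818, Pck1 0.745 against 0.909 and Arg1 0.8 against 1. All 6 windows as given were more open at 2 months. At Ass1 the order turned with int bins left out (0.44 in the knockout, 0.436 at 2 months) and in bins of 10 kb (0.438 and 0.375). G6pc had 0.818 in both maps in bins of 10 kb. Over the 6 windows 57 of 420 bins (13.6%) were more open and 11 (2.62%) more closed, against 11.7% and 11.5% over the autosomes. Age and genotype both differ in this comparison.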

How the data were processed

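Isolated hepatocytes of 15 mice were profiled by srHC-seq, 5 in each of 3 groups. The build was mm9, and STAR 2.4.2a, bcl2fastq 2.19.0.316 and bedtools were used, per the submitters' processing notes; how domains were called is not given in the sources used here. The deposited files are 9 lists of intervals, 1 per class and group, whose score column, as deposited by the authors, is 0 throughout. Each list was read as a pool of its group, from the sample descriptions.

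Maps were read in 2 kb bins with Python 3.11.15 and NumPy 2.4.6, and the functions were tested on simulated data. SciPy 1.17.1 served for binomial confidence intervals, which are not given here, and Matplotlib 3.10.9 for figures. Coordinates are 1-based. Backgrounds were all bins of the 19 autosomes and all end-to-end autosomal windows of a locus's length. With 1 map per group, no test was run. All 6 genes are described. The stretches named are the longest domains and the longest runs with a change of class in each window, and others were named after their values were seen. Members and tests were chosen with earlier results of these data known, and backgrounds by starting class and domain length, and the surroundings of the windows, were added after the values were seen. Other genes of the pathways were not analysed here, for want of mm9 positions. Alternatives shifted the window ends, left out domain edges, short domains, int bins or single loci, and used bins of 10 kb.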

Additional observations from a re-analysis of the deposited data

How the results depend on the processing

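No replicate could be left out and no paired analysis was possible because each map pools its 5 mice. The share of bins with a more open class at 2 months (17.9%) was 13.0% with 20 kb off each window end, 2.5% in the inner parts, 12.3% and 8.56% without 1 or 3 bins beside each P14 wild-type edge (autosomes 10.2% and 6.4%), and 11.0% when only het to euch was counted (autosomes 6.44%). It was 21.5% with 50 kb added. Its opposite (0.952%) was 0 in the inner parts, without 3 bins at edges (autosomes 5.42%), and from euch to het (autosomes 6.89%). In the knockout the more open share (10.0%) was 0.833% in the inner parts, 13.2% with 50 kb added, 7.52% and 5.14% without 1 or 3 bins at edges (autosomes 8.75% and 5.33%) and 5.0% from het to euch (autosomes 5.01%). The more closed share (2.62%) was 0 in the inner parts, 0.279% and 0 without 1 or 3 bins at edges (autosomes 8.55% and 4.57%) and 0.714% from euch to het (autosomes 5.45%). Of the 120 inner bins 117 were euch in the P14 wild type and could not have a more open class. Leaving out each locus in turn gave 14.4% to 19.4% with age and 8.53% to 11.7% in the knockout for the more open share, and 0.274% to 1.29% with age and 1.37% to 3.55% in the knockout, lowest without G6pc in each, for the more closed share.

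Scores changed sign with 50 kb added to each end at Ass1 (-0.154) and Pck1 (-0.124) in P14 wild-type hepatocytes, and in bins of 10 kb at Tat in the knockout (-0.0833). Differences that turned were Arg1 in the knockout (0.218 with 50 kb added), G6pc with age (-0.0286 with 20 kb off, -0.00535 without domains under 6 kb), G6pc in the knockout (0.0571 with 50 kb added, 0.0909 in bins of 10 kb) and Tat in the knockout (-0.0833 in bins of 10 kb); the cause was not tested. Cps1, Ass1 and Pck1 were more open in both comparisons under each of the 6 alternatives, except that Ass1 and Pck1 showed a difference of 0 in the inner parts. Autosomal shares without shared int runs of at least 100 kb were 14.0% and 14.1% with age and 12.5% and 12.9% in the knockout, and none of the 420 bins lay in such a run. Depth is unknown, so no limit of detection can be given.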
